A study of Homo sapiens with 6 samples.

Results

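Matrix metalloproteinases (MMPs) and their tissue inhibitors (TIMPs) were followed in the human line 12Z, established from endometriotic epithelium, after knockdown of SMARCA4. The 10 genes were taken by name from these families: the secreted MMP1, MMP2 and MMP19, the membrane-bound MMP14, MMP15, MMP17 and MMP24, and the inhibitors TIMP1, TIMP2 and TIMP3. All 10 were found among the 58336 gene identifiers of the count tables, and all 10 were among the 15830 genes that passed the filter on low counts and were tested. One group of 3 libraries came from cells transfected with siRNA against SMARCA4 (siBRG1), the gene of the SWI/SNF chromatin remodelling ATPase BRG1. The other group of 3 libraries came from cells given a non-targeting siRNA (control). Cells of both groups were grown in 10% serum, received 50 nM siRNA, were moved to 0.5% serum at 48 h and were harvested at 72 h, per the labels. All libraries are of 1 cell line. The labels name 1 siRNA condition for the knockdown and mention no genetic change.

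MMPs are zinc-dependent endopeptidases that cut collagens, gelatins, proteoglycans and other proteins of the extracellular matrix. They are made as inactive proenzymes with a prodomain that covers the active site. Many secreted MMPs are activated outside the cell by other proteases, whereas membrane-type MMPs are cut by furin-like convertases on the way to the surface. TIMPs bind active MMPs and block them, and TIMP2 also links the MMP2 proenzyme to MMP14 at the cell surface, where MMP2 is activated. In endometrium, MMP expression changes with the menstrual cycle, and MMPs have long been studied in the invasion of endometriotic lesions. RNA level is measured here, not the protein, its secretion or its activity.

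SMARCA4 itself fell from 257.7 ± 11.8 to 63.3 ± 14.4 CPM (each count over its library total after TMM normalisation, on the CPM scale, mean ± SD, n = 3), a log2 fold change of −2.03. Gene counts came to between 12391161 and 13369692 per siBRG1 library and between 40228678 and 49720320 per control library, so 3 counts stood for 0.224 to 0.242 CPM in siBRG1 and for 0.0603 to 0.0746 CPM in control. Reads mapping to several places made up 18.5% to 21.5% of siBRG1 reads and 9.57% to 10.0% of control reads, and reads outside annotated features 3.85% to 4.20% of siBRG1 reads and 12.8% to 13.6% of control reads. Per the labels, every control library was reanalysed from an older deposit and no siBRG1 library was. The effect of such a batch and that of the knockdown therefore cannot be told apart in any value below. Of the 7 epithelial markers, KRT8 stood at 1556 and KRT18 at 1343 CPM in control and made up most of the sum, while EPCAM stood at 0.251 and CDH1 at 3.05 CPM. KRT7 (log2 fold change −2.40) and KRT19 (−0.54) were lower in siBRG1, EPCAM (2.63), CDH1 (0.93) and KRT8 (0.09) were higher, and KRT18 and MUC1 did not pass the test. Summed epithelial markers ranged from 3482 to 3737 CPM in siBRG1 and from 3940 to 4025 CPM in control. The 9 stromal fibroblast markers were present in every library and summed to 5139 to 5478 CPM in siBRG1 against 2805 to 2996 CPM in control, with 8 of the 9 higher and THY1 lower. Endothelial markers summed to 14.98 to 21.3 CPM in siBRG1 and 17.3 to 20.1 CPM in control, with PECAM1 at 0.0523 and 0.0170 CPM. Immune markers summed to 9.76 to 10.5 CPM in siBRG1 and 4.18 to 5.60 CPM in control, mostly CD14, with CD3E at 0 counts in all 6 libraries. The part of the stromal and immune markers in the MMP and TIMP results was not tested. In bulk RNA, fewer cells of a type and less RNA per cell cannot be told apart.

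The coding sequences around the convertase pattern are shown because the members of the secreted and membrane classes differ in it, although some secreted MMPs outside the members, MMP11 among them, are known to carry such a site. In the GENCODE 29 transcripts, all 7 MMPs held the codons of the zinc-binding motif of the catalytic domain, and no TIMP did. A run of codons for arginine, any residue, lysine or arginine, and arginine, the pattern that furin-like convertases cut, was found before the zinc-binding motif in all 4 membrane MMPs and in none of MMP1, MMP2 and MMP19. The 36 bases around it follow, 5′ to 3′ on the coding strand of GRCh38, with the 4 codons of the pattern in capitals.
MMP14 (chr14:22841965-22842000, coding exon): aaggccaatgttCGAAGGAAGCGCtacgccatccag
MMP15 (chr16:58038324-58038359, coding exon): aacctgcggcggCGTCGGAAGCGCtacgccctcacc
MMP17 (chr12:131838671-131838706, coding exon): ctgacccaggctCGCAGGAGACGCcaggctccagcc
MMP24 (chr20:35251951-35251986, coding exon): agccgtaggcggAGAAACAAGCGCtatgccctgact
The pattern began 131 codons before the zinc-binding motif in MMP14 and MMP15, 126 codons before it in MMP17 and 130 codons before it in MMP24. MMP15 and MMP24 held 3 and 2 matches before that motif, and the last match at least 100 codons from it is printed. A match is a description of the letters and not evidence that the site is cut.

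Of the 10 members, 8 differed between the groups at an adjusted p under 0.05 in edgeR's quasi-likelihood test, beside 72.6% of all genes tested. MMP2, MMP14, MMP15, MMP24, TIMP1 and TIMP2 were higher in siBRG1 (6 of 10, beside 36.1% of all genes), and MMP1 and TIMP3 were lower (2 of 10, beside 36.5% of all genes). MMP17 and MMP19 did not pass the test. The difference was at least 2-fold for MMP1, MMP2, MMP14 and TIMP3, which makes 4 of 10 beside 21.6% of all genes. CPM values of the groups did not overlap for 9 of the 10, MMP19 being the exception, beside 74.3% of all genes. A count of 8 calls is thus close to the background of this comparison and is no result about the members. The median log2 fold change was 0.37 over the 10 members and −0.01 over all genes tested. By class it was −0.15 for the 3 secreted MMPs, 0.53 for the 4 membrane MMPs and 0.27 for the 3 TIMPs. The membrane median holds for the chosen members alone. It leaves out the membrane-type MMP16 and MMP25, which were tested and had lower log2 fold changes, of 0.02 and −0.40.

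**Figure D1:**
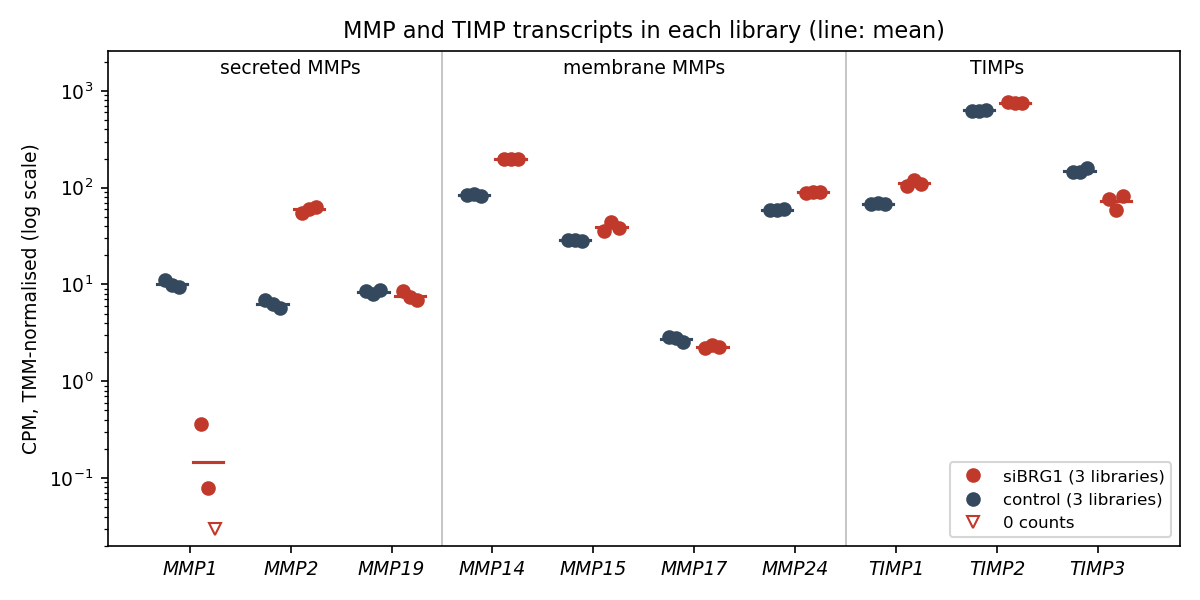
CPM of the 10 members in each library on a log scale, grouped as secreted MMPs, membrane MMPs and TIMPs, with 3 control and 3 siBRG1 libraries as points, the group mean as a line and a library with 0 counts as an open triangle at the foot of the axis. MMP1 in siBRG1 lies between 0 and 0.364 CPM while control lies between 9.40 and 11.0 CPM, MMP2 moves the other way, and the MMP19 groups overlap.

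The secreted MMPs went in opposite directions. MMP1, the interstitial collagenase that cuts fibrillar collagens (chr11:102789920-102798160, minus strand), was read 5, 1 and 0 times in siBRG1 libraries 1, 2 and 3, which is 0.364, 0.0784 and 0 CPM. Control libraries held 536, 384 and 378 counts, or 11.0, 9.79 and 9.40 CPM. Every siBRG1 library thus sat far below every control library, and in 2 of the 3 the transcript was at 1 count or none. Over the group, 6 counts against 1298 gave a ratio of 0.0151 (exact 95% interval for counting error 0.00552 to 0.0329), or 66.3-fold lower. The fitted log2 fold change was −6.00 (SE 0.318, edgeR adjusted p = 5.21e-16), at the 0.884th percentile of all genes tested. Its size rests on few counts: it was −7.86 without siBRG1 replicate 1 and −5.45 without siBRG1 replicate 3. With unstranded counts it was −7.85. The authors' deposited table gives −6.07, and −4.03 in its shrunken form.

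MMP2, the gelatinase A that cuts denatured collagen and type IV collagen (chr16:55389700-55506691, plus strand), stood at 54.9, 60.8 and 63.3 CPM in the 3 siBRG1 libraries and at 6.96, 6.30 and 5.74 CPM in the 3 control libraries. The lowest siBRG1 library was well above the highest control library. The log2 fold change was 3.23 (SE 0.0823, edgeR adjusted p = 1.50e-23), a 9.37-fold rise at the 99.5th percentile of all genes tested. MMP19, a broad-spectrum secreted MMP (chr12:55835433-55842966, minus strand), stood at 8.52, 7.37 and 6.90 CPM in siBRG1 and at 8.52, 7.95 and 8.80 CPM in control. Its groups overlapped and its log2 fold change of −0.15 (SE 0.124) did not pass the test (edgeR adjusted p = 0.292). TMEM198B overlaps MMP19 on the opposite strand by 814 exon bases, and antisense counts at MMP19 were 31.4% of its stranded counts in siBRG1 and 28.6% in control.

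Of the 4 membrane MMPs among the members, 3 were higher in siBRG1. The membrane-type MMP16 and MMP25, outside the members, did not pass the test (log2 fold changes of 0.02 and −0.40). MMP14 (MT1-MMP, chr14:22836557-22849027, plus strand), which activates the MMP2 proenzyme and also cuts collagen itself, stood at 198.8, 199.2 and 197.1 CPM in siBRG1 and at 84.6, 87.0 and 81.3 CPM in control. The siBRG1 libraries lay within a few CPM of one another and all far above control. The rise was 2.35-fold (log2 fold change 1.24, SE 0.0418, edgeR adjusted p = 1.45e-20). MMP24 (MT5-MMP, chr20:35226654-35277000, plus strand), best known from the nervous system, stood at 88.8, 91.0 and 90.9 CPM against 58.3, 59.5 and 60.3 CPM. Again no library overlapped, and the log2 fold change was 0.60 (SE 0.0479, edgeR adjusted p = 4.06e-12). MMP24OS, a gene on the opposite strand that shares 799 exon bases with MMP24, also rose (log2 fold change 0.41, edgeR adjusted p = 1.44e-07). Antisense counts at MMP24 were 16.1% of its stranded counts in siBRG1 and 26.3% in control.

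MMP15 (MT2-MMP, chr16:58025566-58046901, plus strand), a transmembrane relative of MMP14, stood at 35.8, 44.1 and 38.3 CPM in siBRG1 and at 29.1, 28.5 and 27.8 CPM in control. The siBRG1 libraries were all higher but spread more than those of control. The log2 fold change was 0.47 (SE 0.0703, edgeR adjusted p = 1.12e-06). With the trends of GC content and transcript length removed from each library it was 0.16 (edgeR adjusted p = 0.0374). The longest MMP15 transcript is 66.0% GC. MMP17 (MT4-MMP, chr12:131828393-131851783, plus strand), which is anchored in the membrane by a lipid, was the lowest of the 4, at 2.19, 2.35 and 2.27 CPM in siBRG1 and 2.84, 2.78 and 2.56 CPM in control. Its groups did not overlap but its log2 fold change of −0.27 (SE 0.211) did not pass the test (edgeR adjusted p = 0.259). With the GC and length trends removed it was −0.60 and passed (edgeR adjusted p = 0.0112). The longest MMP17 transcript is 68.7% GC.

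All 3 inhibitors changed. TIMP2 (chr17:78852977-78925387, minus strand), the inhibitor that also bridges MMP2 and MMP14, was the most abundant member in every library, at 765, 748 and 754 CPM in siBRG1 and 623, 624 and 639 CPM in control. The groups were apart but close, a rise of 1.20-fold (log2 fold change 0.27, SE 0.0356, edgeR adjusted p = 1.51e-07). With the GC and length trends removed it was 0.15 (edgeR adjusted p = 0.000356). TIMP1 (chrX:47582313-47586789, plus strand) is a soluble inhibitor that acts poorly on MMP14 and its transmembrane relatives. It stood at 103.7, 119.7 and 108.6 CPM in siBRG1 and 68.4, 69.6 and 67.6 CPM in control. All siBRG1 libraries were above all control libraries, and the log2 fold change was 0.69 (SE 0.0504, edgeR adjusted p = 6.84e-13).

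TIMP3 (chr22:32801701-32863043, plus strand), which binds to the matrix and inhibits membrane-type MMPs and ADAM proteases as well, went down while the other inhibitors went up. It stood at 75.9, 59.0 and 82.8 CPM in siBRG1 and at 145.0, 144.9 and 159.1 CPM in control. Replicate 2 was the lowest of the siBRG1 libraries, and no siBRG1 library reached control. The log2 fold change was −1.04 (SE 0.108, edgeR adjusted p = 5.81e-05). It passed the test without siBRG1 replicate 2 as well, at −0.91, where it was no longer 2-fold. The authors' deposited table gives log2 fold changes of −1.07 for TIMP3, 0.67 for TIMP1 and 0.24 for TIMP2.

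**Figure D2:**
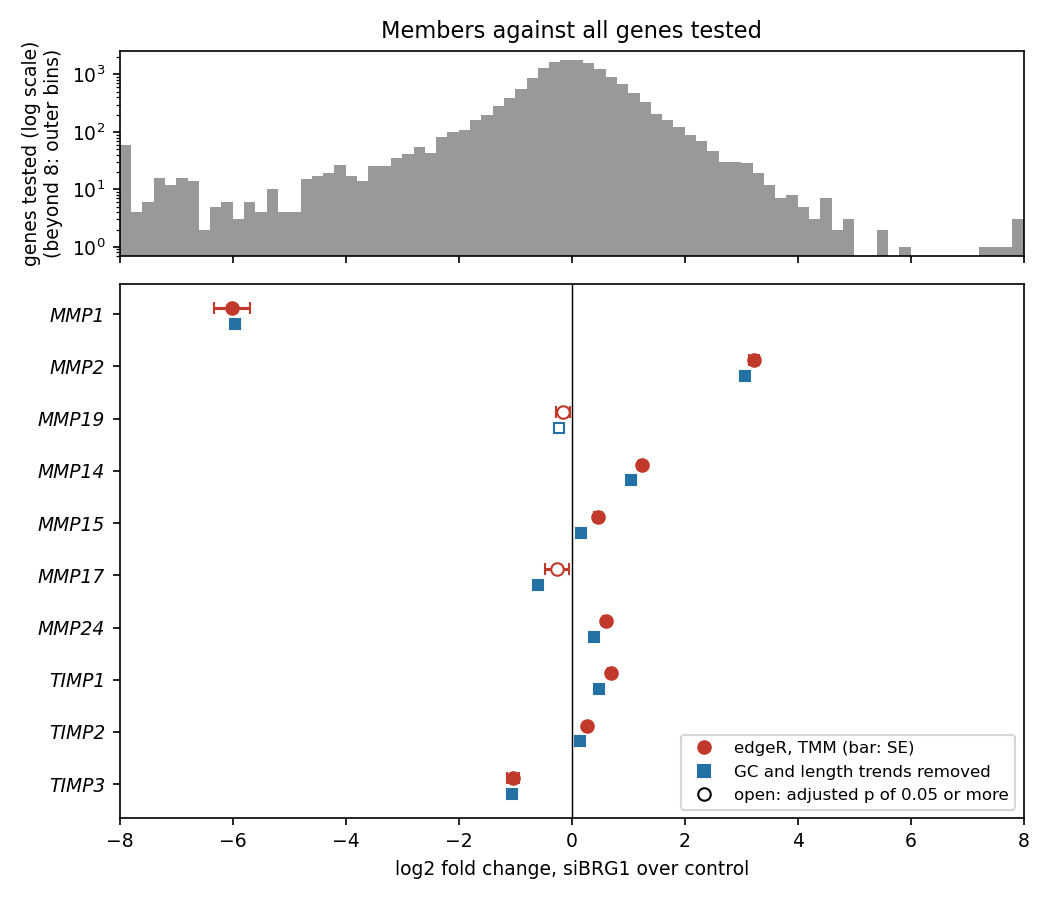
Log2 fold change of each member, siBRG1 over control, as circles with SE bars from edgeR, with squares for the fit after GC and length trends were removed and open symbols where the adjusted p was 0.05 or more, below a histogram of all 15830 genes tested on the same axis. MMP1 at −6.00 and MMP2 at 3.23 lie in the tails of the histogram, the squares lie to the left of the circles for the 6 members that rose, and MMP17 passes the test in the second fit alone.

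The start-site sequences of MMP14 and TIMP3 are shown because these are the members with the largest rise and the largest fall among the 5 members found in the RefSeq promoter table of GRCh38.p14. MMP15, MMP24 and TIMP1 were also in that table, while MMP1, MMP2, MMP17, MMP19 and TIMP2 were not. Both strands of the 250 bases before each start were searched for the AP-1 motif, spelled TGANTCA, and for the GC box, spelled GGGCGG. They were also searched for the letters CCAAT of the box of that name and for the TATA box, spelled TATAAA. No GC box overlapped a CCAAT box in the stretches shown. The stretches printed end where the gene model of GENCODE 29 begins, which leaves off the last 28 bases before the RefSeq start in MMP14 and the last 4 in TIMP3. In them, 5′ to 3′ on the plus strand, the capitals mark the GC boxes and CCAAT boxes of either strand.
MMP14 (chr14:22836335-22836556): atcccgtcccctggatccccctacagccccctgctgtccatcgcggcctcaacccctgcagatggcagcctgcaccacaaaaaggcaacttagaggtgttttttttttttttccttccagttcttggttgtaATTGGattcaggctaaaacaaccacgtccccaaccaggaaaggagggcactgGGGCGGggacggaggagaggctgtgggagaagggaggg
TIMP3 (chr22:32801455-32801700): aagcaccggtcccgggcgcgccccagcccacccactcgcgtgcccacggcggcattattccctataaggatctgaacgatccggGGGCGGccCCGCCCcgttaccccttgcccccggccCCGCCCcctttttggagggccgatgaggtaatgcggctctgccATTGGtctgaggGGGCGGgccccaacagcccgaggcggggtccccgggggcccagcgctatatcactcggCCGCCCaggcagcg
MMP14 held 1 GC box and TIMP3 held 5, and each held 1 CCAAT box. All 5 members in the table held a GC box, which 42.6% of the 35116 promoters of the table did, and MMP14, MMP15 and TIMP3 held a CCAAT box, which 32% did. The AP-1 letters were in none of the 5 windows and in 6.57% of all promoters, and the TATA letters in none of the 5 and in 10.7% of all promoters. GC content of the windows ran from 56.8% in MMP14 to 77.6% in MMP24. These letters thus did not separate TIMP3, which fell, from the members that rose.

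Levels were compared between genes per length, as CPM per kilobase of the gene's exons. In control the order of these levels was TIMP2, TIMP1, TIMP3, MMP14, MMP24, MMP15, MMP1, MMP19, MMP2 and MMP17, and no neighbours in it overlapped over the 3 libraries. TIMP2 led at 111.6 ± 1.60 CPM per kb and MMP17 was last at 0.681 ± 0.0367 CPM per kb. In siBRG1 the order was TIMP2, TIMP1, MMP14, MMP24, TIMP3, MMP2, MMP15, MMP19, MMP17 and MMP1. There TIMP3 (15.8 ± 2.67 CPM per kb) and MMP2 (12.1 ± 0.879 CPM per kb) overlapped, and no other neighbours did. MMP2 thus went from the ninth to the sixth place, MMP1 from the seventh to the tenth, and TIMP3 from the third to the fifth.

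Summed levels per class were higher in siBRG1 for all 3 classes, and least so for the TIMPs. Membrane MMPs summed to 74.4 ± 1.29 CPM per kb in siBRG1 and 39.4 ± 0.660 in control (SD, n = 3), a ratio of 1.88. Secreted MMPs summed to 13.8 ± 0.603 and 8.20 ± 0.554 CPM per kb, a ratio of 1.68, and TIMPs to 221.7 ± 1.86 and 188.6 ± 2.89 CPM per kb, a ratio of 1.18. TIMP transcripts outnumbered MMP transcripts in every library on this scale. The ratio of summed MMPs to summed TIMPs was 0.393, 0.402 and 0.397 in the siBRG1 libraries and 0.259, 0.256 and 0.243 in the control libraries, with no overlap. These sums run over chosen members and are descriptions with no test, and the order of secreted and membrane MMPs depends on the scale. The log2 ratio was 0.75 for secreted and 0.91 for membrane MMPs as given here, but 1.44 and 0.92 without division by length, 1.00 and 0.93 with the longest transcript's length, and 1.04 and 0.96 with unstranded counts.

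**Figure D3:**
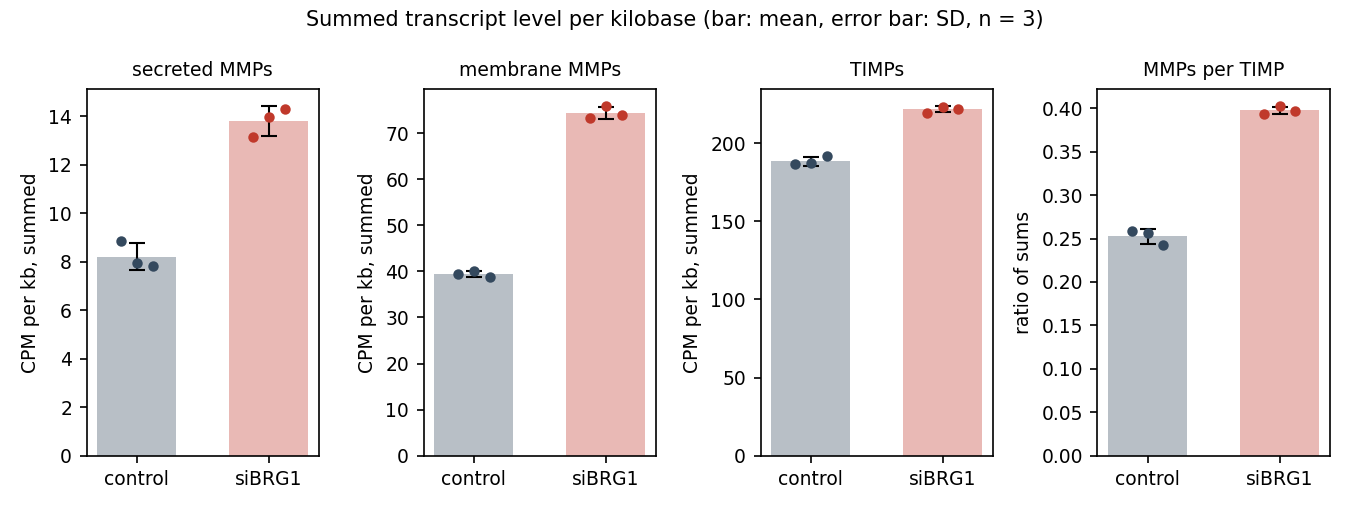
Summed CPM per kilobase of the secreted MMPs, membrane MMPs and TIMPs, and the ratio of summed MMPs to summed TIMPs, with 3 libraries per group as points, bars for the mean and error bars for the SD. The siBRG1 libraries lie above the control libraries in each panel, with mean ratios of MMPs to TIMPs of 0.398 and 0.253.

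The make-up of the secreted class changed most. MMP1 made up 62.3% of the secreted sum in control and 0.565% in siBRG1, and MMP2 15.6% and 87.6%. The membrane class changed less in make-up, with MMP14 at 47.8% of its sum in control and 59.8% in siBRG1. TIMP3 fell from 17.2% to 7.11% of the TIMP sum and TIMP1 went from 23.6% to 32.4%, while TIMP2 held 59.2% and 60.5%. The transcripts of the MMP2 activation complex also changed in proportion. TIMP2 per MMP2 was 87.5 ± 9.54 in control and 11.1 ± 0.950 in siBRG1, TIMP2 per MMP14 was 5.92 ± 0.281 and 3.02 ± 0.0389, and MMP2 per MMP14 was 0.0680 ± 0.00567 and 0.272 ± 0.0208 (SD, n = 3, ratios of CPM per kb).

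**Figure D4:**
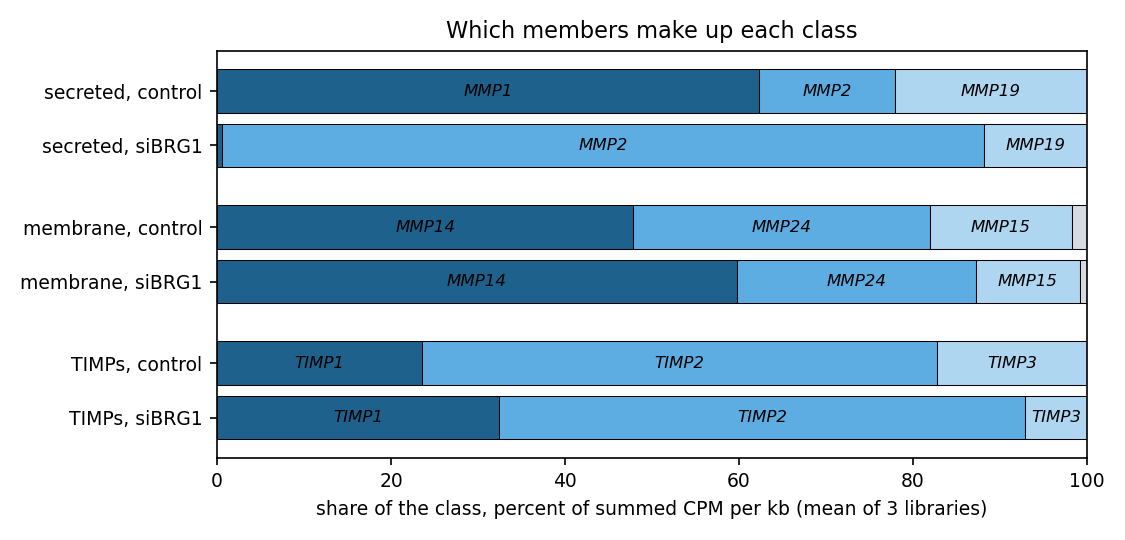
Share of each member in the summed CPM per kilobase of its class, as the mean of 3 libraries, for control and siBRG1. MMP2 takes 87.6% of the secreted sum in siBRG1 where MMP1 takes 62.3% in control, and TIMP2 takes 59.2% and 60.5% of the TIMP sum.

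The 17 other genes of the families were mostly read too rarely to test in these cells. Of these other MMPs and TIMP4, 12 were not tested for low counts, and MMP12, MMP20, MMP21, MMP26 and MMP27 had 0 counts in all 6 libraries, which allows up to 0.0765 CPM over the siBRG1 group and 0.0234 CPM over the control group. MMP9, the other gelatinase, averaged 0.129 ± 0.0485 CPM in siBRG1 and 0.111 ± 0.0252 CPM in control and was not tested. Of the 5 tested, MMP11 rose and MMP3 fell. MMP16, MMP25 and TIMP4 did not pass the test, with log2 fold changes of 0.02, −0.40 and −0.15. With GC and length trends removed, 4 of the 5 tested passed, so not all of MMP16, MMP25 and TIMP4 stayed uncalled there. These 5 are named because they are few, after their values were seen.

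MMP3, stromelysin 1, which can activate the MMP1 proenzyme, was read 2 times over the siBRG1 libraries and 291 times over the control libraries, a ratio of 0.0224 (exact 95% interval for counting error 0.00270 to 0.0817). The control libraries held 161, 62 and 68 of these counts, a spread that the interval does not cover. Its log2 fold change was −5.33 (SE 0.654, edgeR adjusted p = 2.99e-08). The authors' deposited table gives −5.46 for MMP3, and −2.23 in its shrunken form. MMP3 lies 37641 bases from MMP1 in the cluster of 9 MMP genes on chromosome 11. MMP10, 9292 bases from MMP1 on the other side, and MMP13 were each read 0 times in siBRG1 and 6 times in control, too few for a fold or a direction. The other 5 genes of the cluster had at most 1 count per group, so only MMP1 and MMP3 of the 9 were tested. MMP11, stromelysin 3, went the other way with 26 counts against 11, a ratio of 7.71 (exact 95% interval 3.68 to 17.3, edgeR adjusted p = 6.27e-05). It fell out of the genes tested when any control library was left out.

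Of 25 genes that activate, inhibit, bind or clear MMPs, 20 were tested, of which 12 rose and 7 fell (median log2 fold change 0.20). That is 95% called beside 72.6% of all genes. PLAU, the urokinase that makes plasmin from plasminogen, rose from 20.5 ± 1.44 to 100.3 ± 18.4 CPM (log2 fold change 2.29, edgeR adjusted p = 2.50e-06). CLDN1, a tight-junction claudin reported to bring MMP2 and membrane MMPs together, rose from 16.2 ± 1.12 to 120.7 ± 5.40 CPM (log2 fold change 2.90, edgeR adjusted p = 5.35e-26). THBS1, thrombospondin 1, which binds MMP2 for uptake by the receptor LRP1, fell from 3478 ± 30.1 to 461.2 ± 80.9 CPM (log2 fold change −2.91, edgeR adjusted p = 5.41e-05). LRP1 itself rose (log2 fold change 1.30, edgeR adjusted p = 1.28e-05), and so did THBS2, thrombospondin 2 (0.36, edgeR adjusted p = 4.12e-10). FURIN, the convertase named for the pattern printed above, lies outside the naming rule and was picked with its values known. It stood at 56.0 ± 2.97 CPM in control and 86.4 ± 4.86 CPM in siBRG1 (log2 fold change 0.63, edgeR adjusted p = 2.49e-11). The other convertase genes tested fell, PCSK6 with a log2 fold change of −1.34 (edgeR adjusted p = 0.00950) and PCSK7 with −0.54 (edgeR adjusted p = 1.26e-08), while PCSK5 was not tested. The plasminogen gene PLG had 0 counts in all libraries.

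Of 26 transcription factors known to act on MMP promoters, all were tested, and 12 rose and 11 fell (median log2 fold change 0.05). That is 88.5% called, beside 72.6% of all genes, of which 36.1% were higher and 36.5% lower. FOSL1, an AP-1 subunit, fell from 146.4 ± 8.50 to 31.2 ± 2.03 CPM (log2 fold change −2.23, edgeR adjusted p = 2.85e-23). The ETS-family genes ETV1 and ETV4 rose from 5.35 ± 0.515 to 32.8 ± 3.19 CPM (log2 fold change 2.62) and from 20.1 ± 1.41 to 45.8 ± 3.20 CPM (log2 fold change 1.19). Factors of the same family did not share a direction. Of the other AP-1 genes on the list FOS, JUNB and JUND were higher, and FOSB, FOSL2 and JUN were lower. Of the other ETS-family genes ETV5 (0.63) and ELK1 (0.31) were higher, and ETS1 (−0.33) and ETS2 (−1.08) were lower.

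Of 20 matrix proteins that MMPs cut, 18 were tested, of which 12 rose and 5 fell (median log2 fold change 0.58). That is 94.4% called, beside the same 72.6% of all genes. COL3A1, a fibrillar collagen gene and a substrate of collagenases, rose from 293.6 ± 33.7 to 1616 ± 98.3 CPM (log2 fold change 2.46, edgeR adjusted p = 3.37e-08). VTN, vitronectin, rose from 1.82 ± 0.261 to 9.39 ± 1.46 CPM (log2 fold change 2.35). TNC, tenascin C, fell from 151.3 ± 11.1 to 56.5 ± 3.83 CPM (log2 fold change −1.42). COL1A1, COL1A2, COL3A1 and DCN stand among the stromal fibroblast markers as well, so this list and the stromal sum given above share genes.

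**Figure D5:**
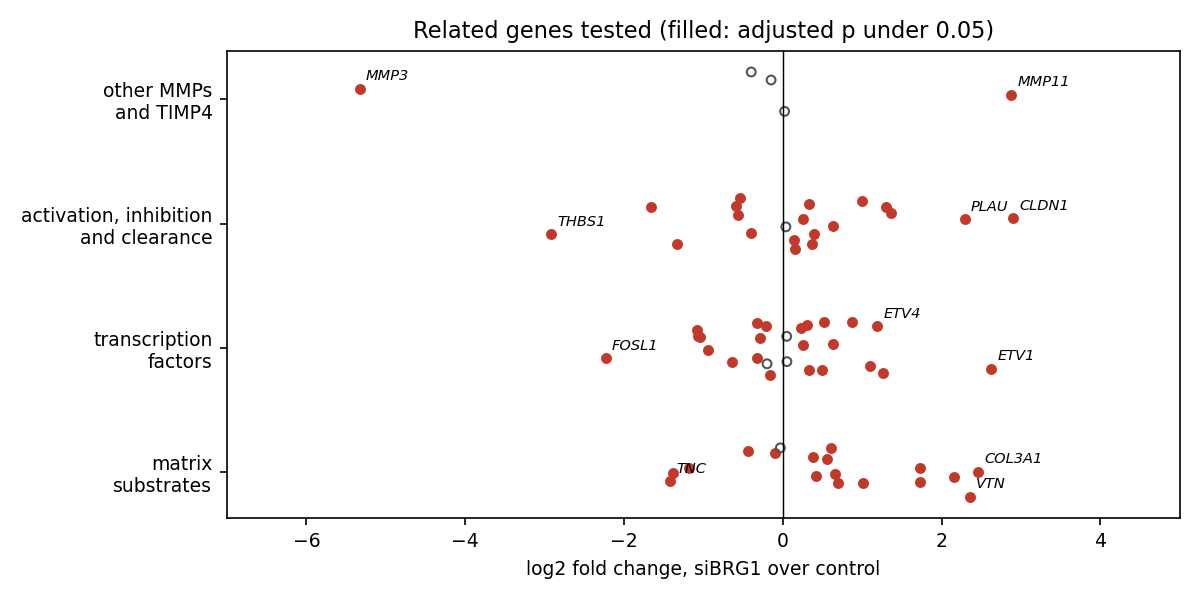
Log2 fold change, siBRG1 over control, of the genes tested in 4 related lists, filled where the edgeR adjusted p was under 0.05 and open otherwise, with vertical scatter for legibility and no meaning. MMP3 at −5.33 and MMP11 at 2.88 bound the first list, and the other lists hold genes on both sides of 0.

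Genes beside the members on the chromosome moved with them in some places and against them in others. LPCAT2, 2307 bases beyond MMP2, had a log2 fold change of 0.53, far from the 3.23 of MMP2. USB1, 3948 bases before MMP15, fell by 0.74 where MMP15 rose, and USP36, 11536 bases from TIMP2, fell by 0.79 where TIMP2 rose. On the other side of these members, CFAP20 beside MMP15 rose by 0.30 and LGALS3BP beside TIMP2 by 0.87. PROCR, 10414 bases from MMP24, rose by 0.76. EIF6, 1911 bases from MMP24 on the other side, had a log2 fold change of 0.00076 and did not pass. ARAF and ELK1 on the sides of TIMP1 rose by 0.30 and 0.31. LRP10, 22586 bases from MMP14, rose by 0.78, and MRPL52 on its other side, 1520 bases away, had a log2 fold change of −0.12 and did not pass. FBXO7, next to TIMP3 at 302872 bases, had a log2 fold change of −0.04 and did not pass either. CEP295NL, which shares 198 exon bases with TIMP2 on the same strand, fell by 1.19 on the log2 scale, and reads of the shared stretch cannot be assigned to either gene.

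Likeness of pattern was measured for the members with the largest rise and fall as the root mean square difference in log2(CPM + 0.5) over the 6 libraries, against 12857 protein-coding genes. The genes most like MMP2 were GAS1 (0.364), C1QTNF1 (0.439) and CEBPD (0.457), which stood at 44.9, 40.2 and 71.7 CPM in siBRG1 and 5.42, 6.07 and 9.73 CPM in control. Those most like MMP1 were HIST1H4K (0.607), HIST1H4J (0.649) and HIST1H3G (0.680), replication histone genes whose near-identical copies make their counts uncertain. They stood at 0.0261, 0.0784 and 0.252 CPM in siBRG1 and at 5.91, 5.80 and 19.4 CPM in control. The part of library preparation in these differences was not tested.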

How the data were processed

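For each of the 6 libraries the authors deposited raw counts per gene in STAR's layout. Build GRCh38.p12 and the tools STAR, DESeq2, cutadapt, FastQC and Trim Galore stand in the submitters' processing notes. Which annotation was counted is not stated there. The table the authors deposited of their own comparison holds log2 fold changes, p-values and a mean signal, per the file headers. The signal was not used. Identifiers were matched to GENCODE 29 (56888 with version, 58216 without), and coordinates are those of GRCh38.

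Sense-strand counts were used, and entries naming no gene were left out. The test was that of edgeR 4.0.16 under R 4.3.3 (TMM, filterByExpr, robust quasi-likelihood, two-sided, Benjamini-Hochberg over 15830 genes, threshold 0.05). The fit was also run on simulated counts with few changed genes and the same dispersion for every gene. With 72.6% of genes called in the data, that run cannot show the error rate of this comparison. SE is the absolute log2 fold change over the square root of F. No label calls the replicates separate cultures, and p-values then cover only library-to-library spread, possibly technical. Pairs of replicates differed beyond sampling noise (2.65 to 4.55 chi-square units per degree of freedom). Intervals cover counting error only.

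The members and lists were chosen with earlier results of these data known. Named genes were all members, SMARCA4, per list up to 3 called genes averaging 50 counts or more, ranked by size of change with the top gene of each direction taken first, and the 3 genes most like MMP1 and MMP2. Markers, overlapping and neighbouring genes and the other list genes in the text lie outside this rule and were picked with their values known. Such list genes include FURIN, LRP1, THBS2, MMP9, PLG and the further AP-1 and ETS-family genes. Alternatives were DESeq2 1.42.0 size factors and Wald test, other count filters, unstranded counts, protein-coding genes alone, GC and length trends removed (mgcv 1.9.3), a replicate block, other length scales and leaving out each library. Library totals without TMM were added after seeing the data. The values of 1 gene in the related lists are not reported here.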

Additional observations from a re-analysis of the deposited data

How the results depend on the processing

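Over 16 alternatives of the fit, 8 or 9 of the 10 members passed the test, and the 8 members called kept their direction and their call in each. MMP17 alone gained a call, at −0.60 with GC and length trends removed (edgeR adjusted p = 0.0112) and −0.60 with the replicate block and those trends removed (edgeR adjusted p = 0.0242). MMP19 passed in none (edgeR and DESeq2 adjusted p from 0.100 to 0.620). TIMP3 was under 2-fold without siBRG1 replicate 2 (−0.91), with library totals without TMM (−0.97) and with unstranded counts (−0.99), which left 3 members at 2-fold. Same-numbered libraries showed no shared deviation (r from −0.0126 to 0.0220). With 3 libraries per group this cannot show whether the numbers pair them. The replicate block gave 8 members called, as without it, with MMP2 at 3.23 and MMP1 at −6.01. Dropping the count filter moved the median of all genes to −0.30 by adding genes of few counts.

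Of the other MMPs and TIMP4, 2 were called, against 1 with at least 50 counts in 3 libraries and 4 with GC and length trends removed, and 1 to 2 when a library was left out. The 1 was MMP3, as MMP11 was then not tested without any 1 of the control libraries or under the stricter filter. The log2 ratio of summed levels was 0.75 for secreted MMPs, against 1.44 without division by length, 1.00 with the longest transcript's length and 1.04 with unstranded counts. For TIMPs it was 0.23, against 0.15, 0.28 and 0.20. For membrane MMPs it was 0.91, against 0.96 with unstranded counts, and for MMPs per TIMP 0.65, against 0.84 without division by length and 0.78 with unstranded counts. The cause of these shifts was not tested. The fold changes of MMP1, MMP3 and MMP11 rest on few counts in 1 group or both, which limits their precision.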
